A study of Mus musculus with 15 samples.

Results

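The 31 genes listed here mark T cells, B cells and the vessels of lymph nodes, and 29 of them were measured among the 22180 genes of the table, each by 1 probe set that names only that gene. They comprised 14 T cell genes, 12 B cell genes and 3 further genes, namely Glycam1 and Madcam1 of lymph node vessels and the lymphotoxin gene Ltb. The T cell genes Lck and Tcf7 were not analysed here. Members are a list of gene names, drawn up with earlier results of these arrays known. The study measured total RNA of mouse aorta on 15 arrays. The mice were DBA/2NCrl, an inbred strain, and were 8 weeks old at the start. For 5 days their food held 20.2 g phosphorus per kg (high phosphate) or 7.0 g per kg (standard chow). The 4 groups were the abdominal aorta on high phosphate (4 arrays) and on chow (4 arrays), and the thoracic aorta on high phosphate (3 arrays) and on chow (4 arrays). The labels call them biological replicates, leave unstated whether a mouse gave both segments, and do not describe how surrounding tissue was trimmed from the vessel.

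T cells recognise antigen through the T cell receptor, whose signal runs through the CD3 chains, the kinase Zap70 and the exchange factor Rasgrp1. B cells do so through surface immunoglobulin with its signalling chains Cd79a and Cd79b. In a lymph node both cell types enter from the blood through high endothelial venules, whose sugar-coated ligands, Glycam1 among them, are bound by L-selectin on lymphocytes. The wall of a healthy aorta holds few lymphocytes, but lymph nodes and lymphoid clusters lie along it in the surrounding fat. Glycam1 is also made by mammary epithelium.

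Values are log2 intensities, given as deposited, and span 1.381 to 13.33 in the table. No scan dates were at hand, so batches could not be looked for. The labelled tissue was checked by smooth muscle: Myh11, the smooth muscle myosin heavy chain, ranged from 10.35 to 11.13 in abdominal and from 11.28 to 11.49 in thoracic arrays. Hepatocyte genes were high in abdominal high-phosphate array 3 (list mean 8.49) and array 4 (10.59), against at most 6.63 elsewhere. In aorta homogenates more cells of a type and more RNA per cell cannot be told apart.

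The T cell genes were high in some abdominal arrays and much lower in others, on either diet. Their mean was 5.57 in abdominal chow array 1, within the thoracic range of 5.45 to 5.73. It was 6.10 in abdominal high-phosphate array 3 and 6.01 in abdominal chow array 3, somewhat above that range. Cd3d, a chain of the CD3 complex, read 9.32, 9.38, 6.08 and 8.69 in abdominal high-phosphate arrays 1 to 4 and 5.53, 8.27, 6.22 and 8.91 in abdominal chow arrays 1 to 4. In the thoracic arrays it read 5.44, 5.32 and 5.53 on high phosphate and 5.38, 5.32, 5.08 and 5.34 on chow. Thus 5 abdominal arrays, 3 on high phosphate and 2 on chow, were far above the thoracic range, and the diet groups overlapped. Cd3g, another CD3 chain, read 10.48, 10.51, 7.37 and 9.91 on high phosphate and 5.80, 9.75, 7.07 and 10.30 on chow in the abdomen, against 5.10 to 6.31 in the 7 thoracic arrays. The same 5 abdominal arrays were high, and chow array 1 lay within the thoracic range. Cd3e, the remaining chain measured, ran from 5.55 to 8.83 in the abdomen and from 4.90 to 5.93 in the thorax.

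The coreceptors followed the CD3 genes. Cd4, of helper T cells, read 8.23, 8.32, 5.77 and 7.73 on high phosphate and 5.47, 7.24, 5.71 and 7.93 on chow in the abdomen, against 5.17 to 5.47 in the thorax. Cd8b1, of cytotoxic T cells, read 7.95, 8.03, 6.11 and 7.16 on high phosphate and 5.74, 7.03, 6.03 and 7.89 on chow, against 5.65 to 6.05. Cd8a, its partner, spanned 5.02 to 6.58 in the abdomen. In all 3 coreceptor genes the 5 highest abdominal arrays were high-phosphate arrays 1, 2 and 4 and chow arrays 2 and 4.

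Il7r, the interleukin-7 receptor that keeps naive and memory T cells alive, had, after Cd3g, the largest abdominal excess over the thorax on high phosphate among the T cell genes. It read 10.51, 10.46, 7.91 and 10.32 on high phosphate and 6.22, 8.90, 6.59 and 9.42 on chow in the abdomen. In the thorax it read 7.23, 6.38 and 5.92 on high phosphate and 5.97, 5.89, 5.55 and 5.68 on chow. High-phosphate arrays 1, 2 and 4 exceeded every chow array of the abdomen, while high-phosphate array 3 lay below chow arrays 2 and 4. Satb1, a chromatin organiser of T cells, read 8.03, 7.94, 6.48 and 7.35 on high phosphate and 5.90, 7.35, 6.68 and 7.83 on chow in the abdomen, against 5.69 to 6.02 in the thorax. Rasgrp1, which couples the T cell receptor to Ras, read 7.75, 7.68, 5.57 and 6.92 on high phosphate and 5.49, 6.71, 6.03 and 7.48 on chow, against a narrow 5.24 to 5.43. Every abdominal array thus exceeded every thoracic array for Rasgrp1, if only by a small step in chow array 1.

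For the adhesion and costimulation genes Cd2, Cd28 and Cd5 the same 5 arrays were the highest in the abdomen. Cd2, an adhesion receptor, ran from 5.30 to 8.41 over the 8 abdominal arrays, Cd28, the main costimulatory receptor, from 5.39 to 7.57, and Cd5, a brake on receptor signalling, from 5.85 to 7.44. Of the T cell genes Cd6 and Zap70 had the smallest abdominal SDs. Zap70 stayed between 4.72 and 5.60 in the abdomen and 4.68 and 5.11 in the thorax, and Cd6, a scavenger-type receptor of T cells, between 5.92 and 7.10 and between 6.18 and 6.42.

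**Figure D1:**
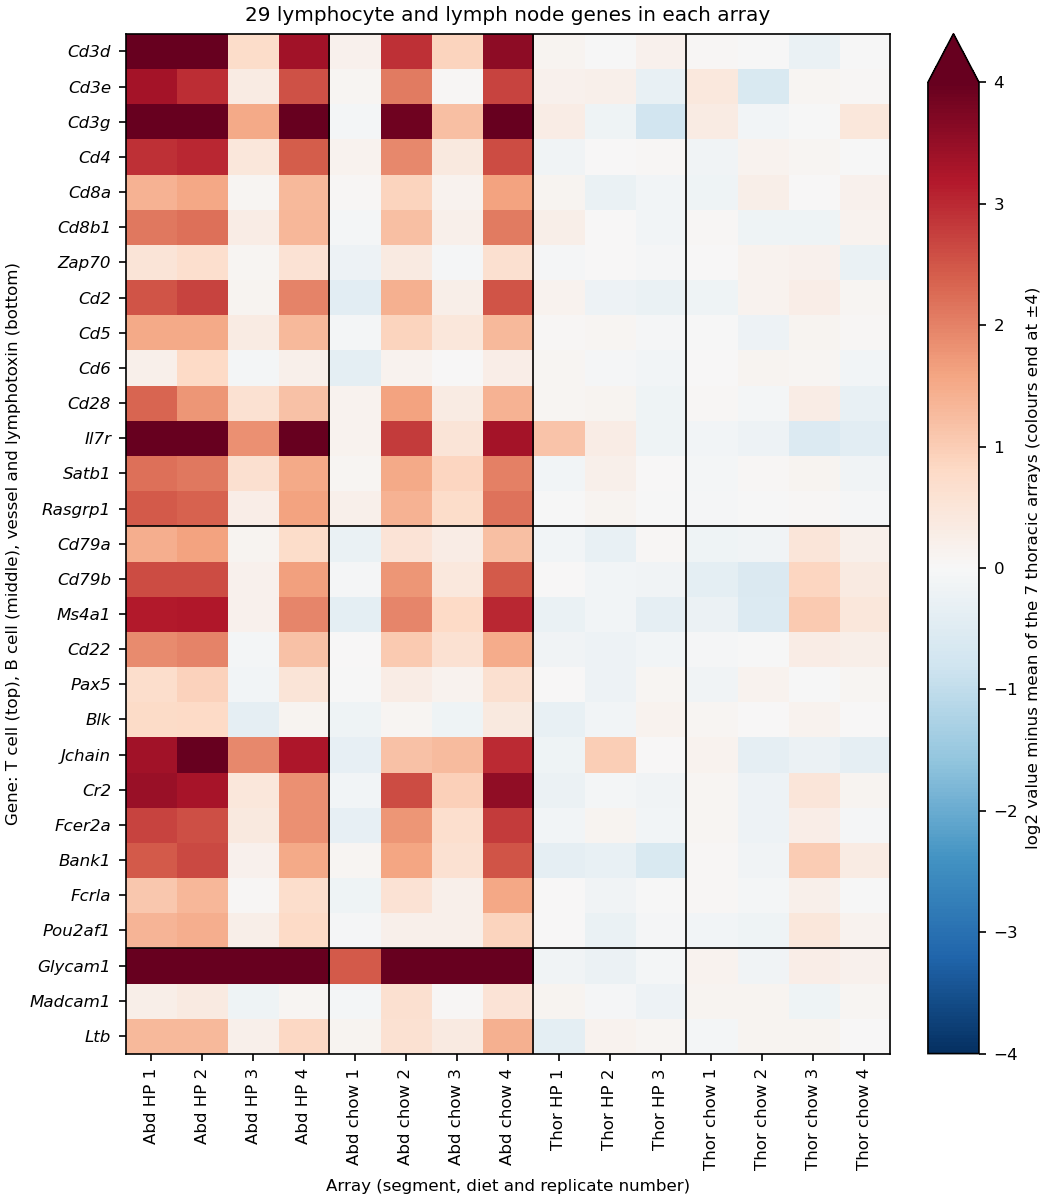
Each cell shows the log2 value of a gene (rows) in an array (columns) minus that gene's mean over the 7 thoracic arrays, with colours ending at ±4. Abdominal high-phosphate arrays 1, 2 and 4 and chow arrays 2 and 4 are red for most T and B cell genes, while Glycam1 is red in all 8 abdominal arrays.

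B cell genes were high in the same 5 abdominal arrays. Ms4a1, the surface protein CD20, read 9.05, 9.06, 6.04 and 7.81 on high phosphate and 5.48, 7.81, 6.67 and 8.88 on chow in the abdomen. In the thorax it read 5.60, 5.77 and 5.52 on high phosphate and 5.63, 5.30, 6.90 and 6.33 on chow. The groups overlapped in the abdomen, and thoracic chow array 3 stood above abdominal high-phosphate array 3 and abdominal chow arrays 1 and 3. Cr2, the complement receptor CD21 of mature B cells and follicular dendritic cells, read 8.75, 8.58, 5.75 and 7.12 on high phosphate and 5.16, 7.91, 6.23 and 8.84 on chow in the abdomen, against 5.04 to 5.76 in the thorax. Fcer2a, the low-affinity IgE receptor CD23, read 7.84, 7.72, 5.54 and 6.98 on high phosphate and 4.82, 6.92, 5.83 and 7.95 on chow, against 4.95 to 5.40. For Cr2 and Fcer2a the highest abdominal array was chow array 4.

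Receptor signalling genes of B cells followed. Cd79b read 8.64, 8.66, 6.22 and 7.67 on high phosphate and 5.997, 7.80, 6.46 and 8.48 on chow in the abdomen, against 5.45 to 6.89 in the thorax. Bank1, a scaffold of B cell receptor signalling, read 9.57, 9.75, 7.29 and 8.63 on high phosphate and 7.21, 8.69, 7.73 and 9.62 on chow, against 6.52 to 8.15. Cd79a ran from 5.33 to 7.20 over the 8 abdominal arrays and Cd22, an inhibitory receptor, from 5.64 to 7.71. The kinase gene Blk (5.60 to 6.75), the transcription factor gene Pax5 (5.70 to 6.73) and the Fc receptor-like gene Fcrla (5.31 to 7.02) had narrower spans in the abdomen.

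Jchain, the chain that joins secreted IgA and IgM and is made by antibody-secreting cells, departed from this order. It read 8.37, 9.15, 6.92 and 8.26 on high phosphate and 4.70, 6.19, 6.26 and 7.99 on chow in the abdomen. In the thorax it read 4.85, 5.99 and 5.01 on high phosphate and 5.14, 4.65, 4.79 and 4.65 on chow. Abdominal high-phosphate array 4 and chow array 2 had nearly the same Ms4a1 value, 7.81 and 7.81, but Jchain values of 8.26 and 6.19. Pou2af1, a coactivator that B cells need for germinal centres, read 7.08, 7.16, 5.93 and 6.51 on high phosphate and 5.67, 5.92, 5.90 and 6.61 on chow in the abdomen, against 5.44 to 6.16 in the thorax. For Jchain and Pou2af1 abdominal chow array 2 was not among the 5 highest abdominal arrays.

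Glycam1 set the abdominal arrays apart most. It read 12.78, 12.71, 12.20 and 12.68 on high phosphate and 8.95, 12.59, 12.17 and 12.69 on chow in the abdomen, against 6.37, 6.28 and 6.43 on high phosphate and 6.64, 6.35, 6.76 and 6.66 on chow in the thorax. All 8 abdominal arrays were above all 7 thoracic arrays, and chow array 1 stood alone between the rest of the abdomen and the thorax. Abdominal high-phosphate array 3 and chow array 3 were within 1 log2 unit of the highest Glycam1 value, though their Cd3d values were 6.08 and 6.22. Madcam1, the ligand of the gut-homing integrin on mucosal and lymph node vessels, read 6.28, 6.40, 5.87 and 6.10 on high phosphate and 5.96, 6.66, 6.09 and 6.57 on chow in the abdomen, against 5.82 to 6.15 in the thorax. Its highest values were those of chow arrays 2 and 4. Ltb, made by lymphocytes and needed to build lymph nodes, read 7.19, 7.21, 6.10 and 6.74 on high phosphate and 6.01, 6.51, 6.27 and 7.31 on chow, against 5.51 to 6.04 in the thorax.

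**Figure D2:**
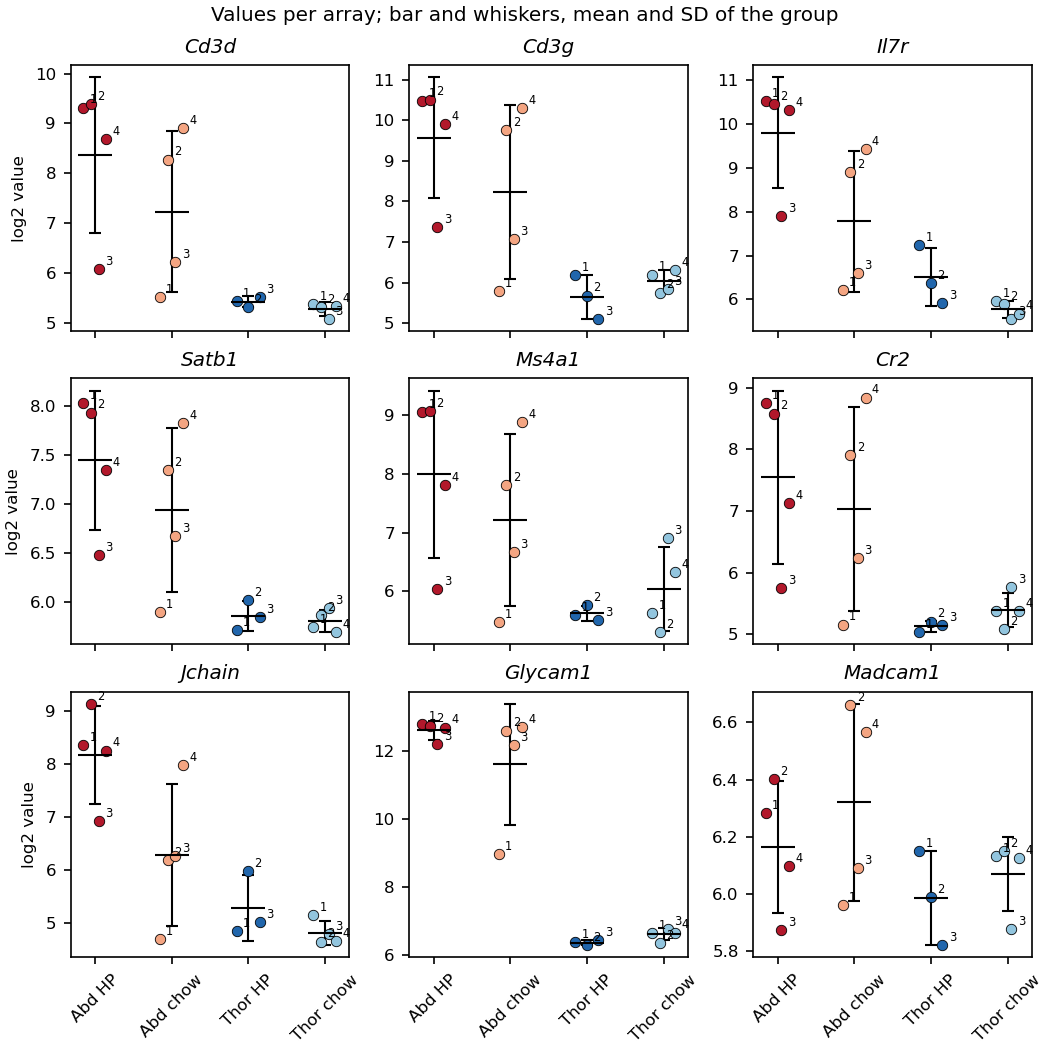
Points are log2 values of single arrays, labelled with their replicate number, for 9 genes in the 4 groups (HP, high phosphate), and bars with whiskers are the mean and SD of the group. For Cd3d and Ms4a1 the abdominal groups spread over more than 3 log2 units and overlap, while Glycam1 separates all abdominal from all thoracic arrays.

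The promoters of the members were searched for short motifs of lymphoid transcription factors. Why the members moved together across arrays was not tested. RefSeq windows (GRCm38.p6) were at hand for 21 of the 29 genes, and the 250 bases before each start were read on both strands. The E-box CAGGTG, bound by E proteins, lay in the windows of 14 of 21 members, against 19.4% of all 27025 genes with windows. The PU.1 core AGGAAG lay in 12 (against 32.3%) and the loose NF-kB pattern (GGG, 5 unspecified bases, CC) in 12 (against 48.7%). The RUNX site TGTGGT, the TCF/LEF site CTTTGA and the ETS site CCGGAA lay in 2 members each (against 15.9%, 15.8% and 13.6%). The GATA site AGATAA and the EBF site (TCCC, 2 unspecified bases, GGGA) lay in 1 member each (against 11.4% and 0.914%). The octamer ATGCAAAT lay in 0 (against 1.81%). Motifs can overlap, genes with several starts have several windows, and a match is a description of letters, not of binding.

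Shown are the windows of 5 members that hold the E-box, chosen to cover the T cell, B cell and vessel genes and because no annotated part of the gene falls inside the window. Each is written 5′ to 3′ and ends at the base before the start, with CAGGTG or its reverse complement CACCTG in capitals.
Cd3g (chr9:44980432-44980681, minus strand): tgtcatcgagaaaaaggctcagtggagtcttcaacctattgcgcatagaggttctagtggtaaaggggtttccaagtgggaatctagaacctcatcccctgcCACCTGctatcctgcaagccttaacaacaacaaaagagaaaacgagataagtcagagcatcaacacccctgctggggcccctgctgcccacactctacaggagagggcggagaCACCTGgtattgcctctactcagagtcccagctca
Rasgrp1 (chr2:117342878-117343127, minus strand): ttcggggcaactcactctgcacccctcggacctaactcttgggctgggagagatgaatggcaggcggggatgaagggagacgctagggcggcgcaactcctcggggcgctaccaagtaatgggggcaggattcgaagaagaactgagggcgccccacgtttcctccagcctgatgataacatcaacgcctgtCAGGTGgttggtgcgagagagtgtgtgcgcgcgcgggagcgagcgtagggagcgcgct
Cd79a (chr7:24897247-24897496, plus strand): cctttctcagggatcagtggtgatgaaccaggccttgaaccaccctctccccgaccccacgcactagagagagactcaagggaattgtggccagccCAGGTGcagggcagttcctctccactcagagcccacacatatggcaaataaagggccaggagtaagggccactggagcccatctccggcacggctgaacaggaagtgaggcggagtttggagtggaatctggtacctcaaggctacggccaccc
Glycam1 (chr15:103565082-103565331, minus strand): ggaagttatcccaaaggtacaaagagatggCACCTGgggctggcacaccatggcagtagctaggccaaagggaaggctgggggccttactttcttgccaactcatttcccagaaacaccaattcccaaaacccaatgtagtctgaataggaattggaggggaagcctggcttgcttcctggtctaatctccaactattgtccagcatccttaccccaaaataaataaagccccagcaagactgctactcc
Ltb (chr17:35194257-35194506, plus strand): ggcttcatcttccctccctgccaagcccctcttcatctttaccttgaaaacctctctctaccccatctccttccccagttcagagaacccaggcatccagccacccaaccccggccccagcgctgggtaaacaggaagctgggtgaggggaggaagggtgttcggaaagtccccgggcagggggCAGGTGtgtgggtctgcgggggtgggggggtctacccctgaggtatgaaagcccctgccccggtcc
In Cd3g, the T cell gene with the largest abdominal excess, the matches begin 148 and 35 bases before the start. In Glycam1 the match begins 220 bases before the start, in Cd79a 154, in Ltb 66 and in Rasgrp1 58.

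The spread within groups was wide in the abdomen and narrow in the thorax. The SD pooled over both diets had a median of 0.938 over the 29 members in the abdomen and 0.17 in the thorax, on the log2 scale. Over all 22180 genes the medians were 0.152 and 0.142. The abdominal SD was above the thoracic SD in all 29 members, as in 55.8% of all genes, and was at least 1 in 13 members, as in 0.748% of all genes. It was largest for Cd3g (1.85), Cd3d (1.59) and Cr2 (1.53) and smallest for Madcam1 (0.29). Within the thorax the largest SD was that of Ms4a1 (0.56). No test was made of the spread, since the members were chosen with results known.

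Counted by array, all 29 members were above their highest thoracic value in 3 abdominal arrays. These were high-phosphate array 1 (against 22.2% of all genes), high-phosphate array 2 (20.8%) and chow array 4 (19.3%). In high-phosphate array 4 and chow array 2 it was 27 members each (against 17.4% and 14.5% of all genes). High-phosphate array 3 had 13 such members (16.8% of all genes) and chow array 3 had 14 (3319 of 22180 genes). In chow array 1 only Cd3d, Cd4, Rasgrp1 and Glycam1 were above the thorax (against 15.6% of all genes). These 4 were also the only members with all 8 abdominal arrays above all 7 thoracic ones, which held for 2.66% of all genes. For Cd3d and Cd4 that separation was thin in chow array 1, at 5.527 against a highest thoracic value of 5.525 and at 5.47500 against 5.47481. High-phosphate arrays 1, 2 and 4 and chow arrays 2 and 4 were the 5 highest abdominal arrays for 27 members, all but Jchain and Pou2af1, as for 6.34% of all genes. Chow array 1 was the lowest abdominal array for 24 members (13.7% of all genes), and high-phosphate array 2 was the highest for 16 (10.6%).

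In the thorax, chow array 3 carried more B cell signal than the rest. It was the highest thoracic array for 9 of the 12 B cell genes but for 4 of the 14 T cell genes, against 15.4% of all genes. Bank1 read 8.15 there against 6.52 to 6.82 on high phosphate, and Cd79b read 6.89. The T cell mean of that array, 5.61, lay within the range of the other thoracic arrays, as did the Jchain value of 4.79.

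The comparison of segments on high phosphate asks how abdominal and thoracic aorta differed in lymphocyte genes under that diet. By limma with Benjamini-Hochberg adjustment over all genes, 21 of 29 members were higher in the abdomen and 0 lower, where 6.25% of all genes were called higher and 13.8% in either direction. They were 11 of 14 T cell genes, 8 of 12 B cell genes, Glycam1 and Ltb. The median difference was 1.59 over the members and -0.04 over all genes, on the log2 scale. Values below are log2 differences, abdominal minus thoracic, ± SE. Glycam1 was 6.23 ± 0.62 higher (75.1-fold; adjusted p = 4.95e-05). Among T cell genes Cd3g was 3.91 ± 0.92 higher (adjusted p = 0.0116), Il7r 3.29 ± 0.73 (0.00873) and Cd3d 2.94 ± 0.77 (0.0208). Among B cell genes Jchain was 2.89 ± 0.59 higher (adjusted p = 0.00559), Ms4a1 2.36 ± 0.74 (0.0475) and Cr2 2.42 ± 0.75 (0.0444).

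The 8 members not called on high phosphate were Zap70, Cd6, Cd8b1, Cd79b, Pax5, Blk, Fcrla and Madcam1, with differences of 0.18 ± 0.17 (Madcam1) to 1.84 ± 0.61 (Cd79b; adjusted p = 0.0567). All 4 abdominal arrays were above all 3 thoracic arrays for 23 members, against 10.1% of all genes. The count of 21 depended on single arrays. It was 5 without abdominal high-phosphate array 1 or array 2, 11 without array 4 and 27 without array 3. Without thoracic high-phosphate arrays 1, 2 and 3 in turn it was 5, 7 and 6. With only the groups compared in the fit it was 12. Cd3g, Il7r, Jchain and Glycam1 kept their call in all 24 alternative fits. Without abdominal arrays 3 and 4, which have high hepatocyte genes, the count was 26.

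On chow the same comparison called 1 member, Glycam1, which read 11.60 ± 1.78 in the abdomen (SD, n = 4) and 6.60 ± 0.18 in the thorax (n = 4). The log2 difference was 5.00 ± 0.58 (31.9-fold; limma adjusted p = 0.000171), and 3.02% of all genes were called higher, or 4.78% in either direction. Counting Glycam1, 13 members had an unadjusted p under 0.05 in limma, all higher in the abdomen, against 19.4% of all genes in either direction. Of these Satb1 came closest, at 1.13 ± 0.36 (adjusted p = 0.0883). Il7r differed by 2.01 ± 0.68 (adjusted p = 0.11), Cd3d by 1.95 ± 0.72 (0.143) and Cr2 by 1.63 ± 0.70 (0.212). Blk (-0.04 ± 0.21) and Cd6 (-0.02 ± 0.16) had estimates just below 0. Separation on chow was complete for 5 members, Cd3d, Cd4, Il7r, Rasgrp1 and Glycam1, against 5.97% of all genes. Without abdominal chow array 1, the lowest array for most members, 7 members were called (Cd3d, Cd3g, Cd5, Il7r, Satb1, Jchain and Glycam1), and without abdominal high-phosphate array 3, which enters through the shared spread, 4 were.

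**Figure D3:**
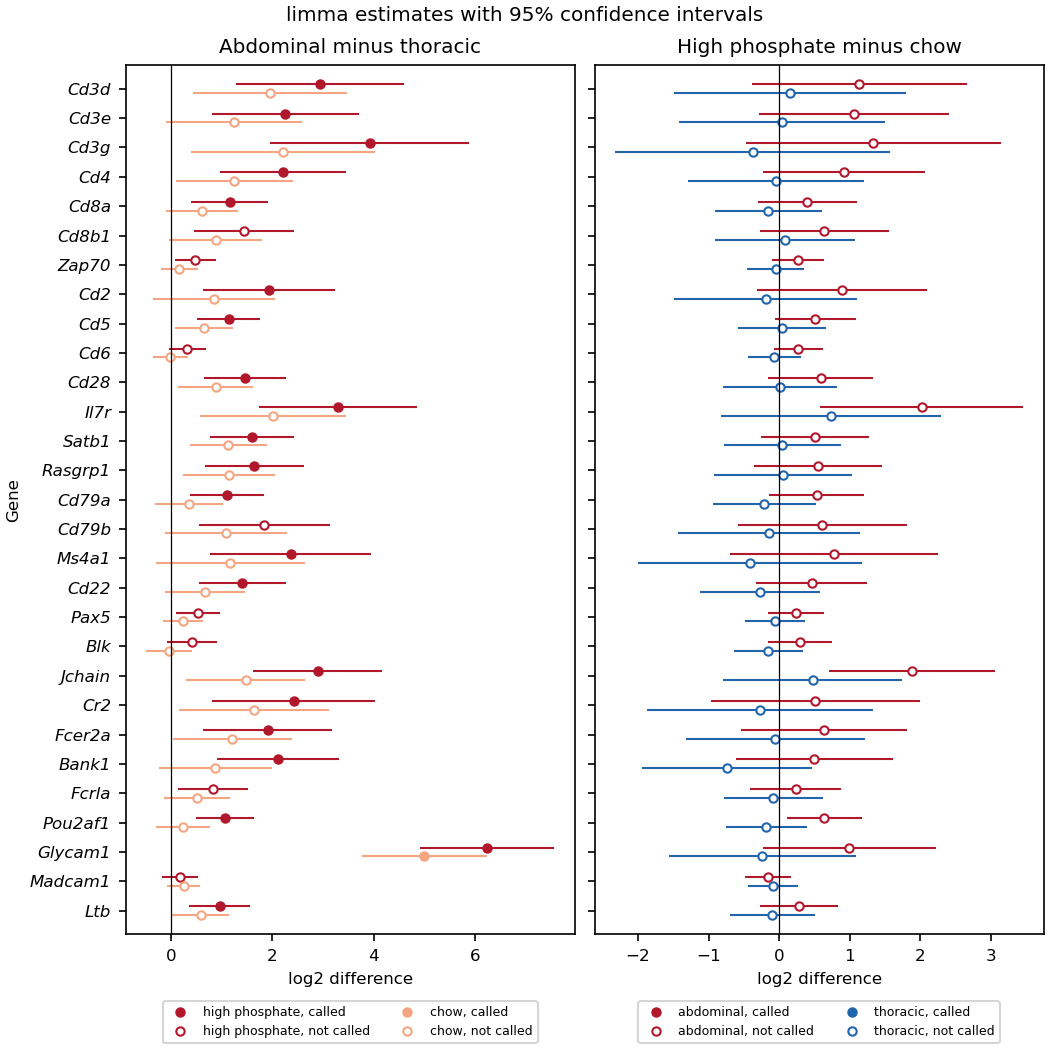
Points are log2 differences estimated by limma for the 29 genes and lines their 95% confidence intervals, abdominal minus thoracic on each diet (left) and high phosphate minus chow in each segment (right), with filled points called at an adjusted p under 0.05. The left panel holds 21 called genes on high phosphate and Glycam1 on chow, and the right panel has only open points.

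The diet comparison in the abdomen asks whether high phosphate changed lymphocyte genes there. Limma called 0 of 29 members and gave 3 an unadjusted p under 0.05, against 7.01% of all genes called and 20.0% with such a p. Estimates, high phosphate minus chow, were above 0 for 28 members, with a median of 0.55 against -0.01 over all genes, and Madcam1 was at -0.16 ± 0.15. The 3 were Jchain, from 6.29 ± 1.35 on chow to 8.17 ± 0.92 (SD, n = 4 each; log2 change 1.89 ± 0.55 SE, adjusted p = 0.0521 by limma), Il7r (2.02 ± 0.68, adjusted p = 0.0939) and Pou2af1 (0.64 ± 0.25, adjusted p = 0.152). The diet groups overlapped for all 29 members, where 4.12% of all genes had every high-phosphate array above every chow array and 7.75% every one below. Adipocyte genes differed beside this: their list mean was 9.25, 9.26, 9.49 and 9.30 on high phosphate and 10.42, 10.38, 10.10 and 10.04 on chow, and limma called 5 of 10 lower on high phosphate. The part of fat in the lymphocyte gene values was not tested.

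Intervals were wide in this comparison, although the shared spread of the fit makes them narrower than the abdominal arrays alone would. For Cd3d the SDs were 1.56 and 1.62 in the abdomen but 0.10 and 0.14 in the thorax (high phosphate, then chow). All 4 groups enter the SE, so the SEs and p-values of the abdominal diet comparison tend to be too small. The 95% confidence interval of the log2 change was -0.39 to 2.66 for Cd3d, -0.69 to 2.25 for Ms4a1 and -0.97 to 2.00 for Cr2, intervals that hold 0 as well as rises of more than 1.5 on the log2 scale. The Cr2 estimate of 0.51 ± 0.70 turned to -0.11 without chow array 1. The mean change over all 29 members, 0.67, was 0.32 without chow array 1, 1.03 without chow array 4 and 1.07 without high-phosphate array 3. Single arrays decided the count. Without high-phosphate array 3 limma called 6 members (Il7r, Jchain, Pou2af1, Cd22, Cd4 and Cd5), and without chow array 4 it called 3 (Il7r, Jchain and Pou2af1). Without high-phosphate arrays 3 and 4, the arrays with hepatocyte genes, it called 7 (Il7r, Jchain, Pou2af1, Blk, Cd22, Cd79a and Rasgrp1). That fit keeps high-phosphate arrays 1 and 2, whose T cell means of 8.04 and 8.06 are the highest of all arrays.

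The diets were compared in the thorax too. Limma called 0 of 29 members and gave 0 an unadjusted p under 0.05, against 2.47% and 13.8% of all genes (1.39% called higher). The fit shares 1 spread per gene over all 15 arrays, so the wide abdominal spread entered these SEs. For Cd3d the thoracic SDs were 0.10 on high phosphate and 0.14 on chow, but the SE was 0.77. These counts therefore cannot tell a small thoracic change from none. With only the thoracic groups in the fit, 0 members were called as well. The median change was -0.08, and 1 of the 12 B cell estimates, that of Jchain (0.47 ± 0.59), was above 0. Bank1 read 6.75, 6.82 and 6.52 on high phosphate and 7.15, 6.99, 8.15 and 7.46 on chow, every high-phosphate array being lower (log2 change -0.74 ± 0.56, adjusted p = 0.649). Cd22 showed the same separation, at 5.52 to 5.60 against 5.67 to 6.02, which held for 6.67% of all genes, and 0 members had every high-phosphate array higher (7.09% of all genes). Beside this, Cxcl13, the chemokine that draws B cells into follicles, rose in the thorax, from 8.01, 7.23, 9.21 and 8.13 on chow to 9.71, 11.11 and 10.21 (2.20 ± 0.54, limma adjusted p = 0.0442). In the abdomen it read 8.20, 10.31, 9.46 and 10.95 on chow and 11.11, 11.48, 11.18 and 11.42 on high phosphate (1.57 ± 0.50, adjusted p = 0.0758, not called). Its diet change was not called different between segments (-0.63 ± 0.73, adjusted p = 0.926). Cxcl13 came from a list of 9 lymph node stroma and chemokine genes, and was the 1 called in the thorax. There 3 of the 9 estimates were above 0, with a median of -0.07. In the abdomen 1 other gene of that list was called higher, and 7 of the 9 estimates were above 0, with a median of 0.18.

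Whether the diet change differed between segments was tested by the interaction. Limma called 0 of 22180 genes and 0 of 29 members. An unadjusted p under 0.05 was found for 5.49% of all genes and for 1 member, Pou2af1 (0.82 ± 0.36, adjusted p = 0.879). The estimates, abdominal minus thoracic diet change, had a median of 0.74 over the members and -0.01 over all genes. Both diet changes and the interaction share their arrays with the segment comparisons.

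Further markers of lymphocytes were taken from lists of known genes. On high phosphate 10 of 22 other T cell genes were higher in the abdomen and 0 lower, with a median log2 difference of 1.28. Over all genes 6.25% were called higher in that comparison and 13.8% in either direction. They included the adaptor Lat (1.50 ± 0.41), Themis, needed for T cell selection (2.29 ± 0.68), the activation marker Cd69 (2.02 ± 0.44) and the kinase Prkcq (1.63 ± 0.39). Of 20 other B cell and plasma cell genes 7 were higher, among them the kinase Btk (1.26 ± 0.38), the IgM receptor Fcmr (1.59 ± 0.45) and Ralgps2 (1.86 ± 0.34). The plasma cell genes Mzb1 and Tnfrsf17 were not called and spanned 5.53 to 6.32 and 5.004 to 5.84 in the abdomen. Of 12 natural killer and cytotoxic genes 5 were higher, including Klrd1 (2.18 ± 0.62). On chow 0 other T cell genes, 1 other B cell gene (Ralgps2, 1.37 ± 0.32) and 0 cytotoxic genes were called, against 4.78% of all genes. An unadjusted p under 0.05 was found in limma for 5 of 22, 4 of 20 and 4 of 12, against 19.4% of all genes. Of those 4 cytotoxic genes 2 were higher and 2 lower in the abdomen. In either diet comparison limma called 0 genes of these 3 lists, against 7.01% of all genes in the abdomen and 2.47% in the thorax. An unadjusted p under 0.05 was found for 3 of their genes in the abdomen (20.0% of all genes) and 0 in the thorax (13.8%).

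Genes of homing and of lymph node vessels were called in part. Over all genes 6.25% were called higher in the abdomen on high phosphate and 3.02% on chow. Of 11 homing receptor and recirculation genes 6 were higher in the abdomen on high phosphate, among them Ccr7, which guides T cells into lymph nodes (1.06 ± 0.28), the integrin gene Itga4 (1.77 ± 0.49) and Cxcr4 (0.94 ± 0.19, and 0.80 ± 0.18 on chow). Ccr7 read 7.33, 7.01, 5.93 and 7.20 on high phosphate and 5.73, 6.39, 6.10 and 6.71 on chow in the abdomen, against 5.60 to 6.04 in the thorax. Of 10 genes listed for high endothelial venules, 3 were higher in the abdomen on each diet. These were Glycam1 and Ackr1, an atypical chemokine receptor of venules (0.82 ± 0.16 on high phosphate and 0.76 ± 0.15 on chow), with Ubd, a ubiquitin-like gene (2.36 ± 0.56), on high phosphate and Gcnt1, a glycan-branching enzyme (0.38 ± 0.10), on chow. The enzyme genes that finish the L-selectin ligand, Chst4 and Fut7, lay at 5.28 to 6.13 and 4.87 to 5.62 in the abdomen, and neither was called. Of 9 lymphotoxin pathway genes only Ltb was called, on high phosphate, where 13.8% of all genes were called in either direction.

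Markers of other organs were set beside these values. Thymus genes showed no such pattern: the mean of 8 of them lay between 4.998 and 5.18 in the abdomen and 5.07 and 5.20 in the thorax, and Rag2, the recombinase of developing lymphocytes, between 4.30 and 4.72 and between 4.37 and 4.77. The mean of 9 pancreas and gut genes ranged from 5.21 to 5.39 and from 5.23 to 5.48. Of 7 spleen and erythroid genes Spic, a transcription factor of iron-recycling macrophages, was higher in the abdomen on high phosphate (3.10 ± 0.73) and the homeobox gene Tlx1 lower (-0.34 ± 0.09), while the erythrocyte band 3 gene Slc4a1 was not called. Over all genes 13.8% were called there in either direction. Spic read 9.22, 9.21, 6.38 and 8.81 on high phosphate and 5.28, 7.88, 6.40 and 8.93 on chow in the abdomen.

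Smooth muscle genes ran the other way. Their mean was 8.05, 7.99, 8.69 and 8.15 in abdominal high-phosphate arrays 1 to 4 and 8.73, 8.52, 8.49 and 8.11 in chow arrays 1 to 4, against 8.93 to 9.26 in the thorax. It was lowest in high-phosphate arrays 1, 2 and 4 and chow array 4, which have high T cell genes, and chow array 2 lay among the others. All 10 of 10 were lower in the abdomen on high phosphate and 5 on chow, against 13.8% and 4.78% of all genes called in either direction. Sympathetic neuron and chromaffin genes (8 measured) also marked the abdomen, with a list mean of 7.88 to 9.33 against 5.78 to 6.77, and this mean was highest in chow array 3, where T cell genes were low. The part of these tissues in the results on lymphocyte genes was not tested.

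**Figure D4:**
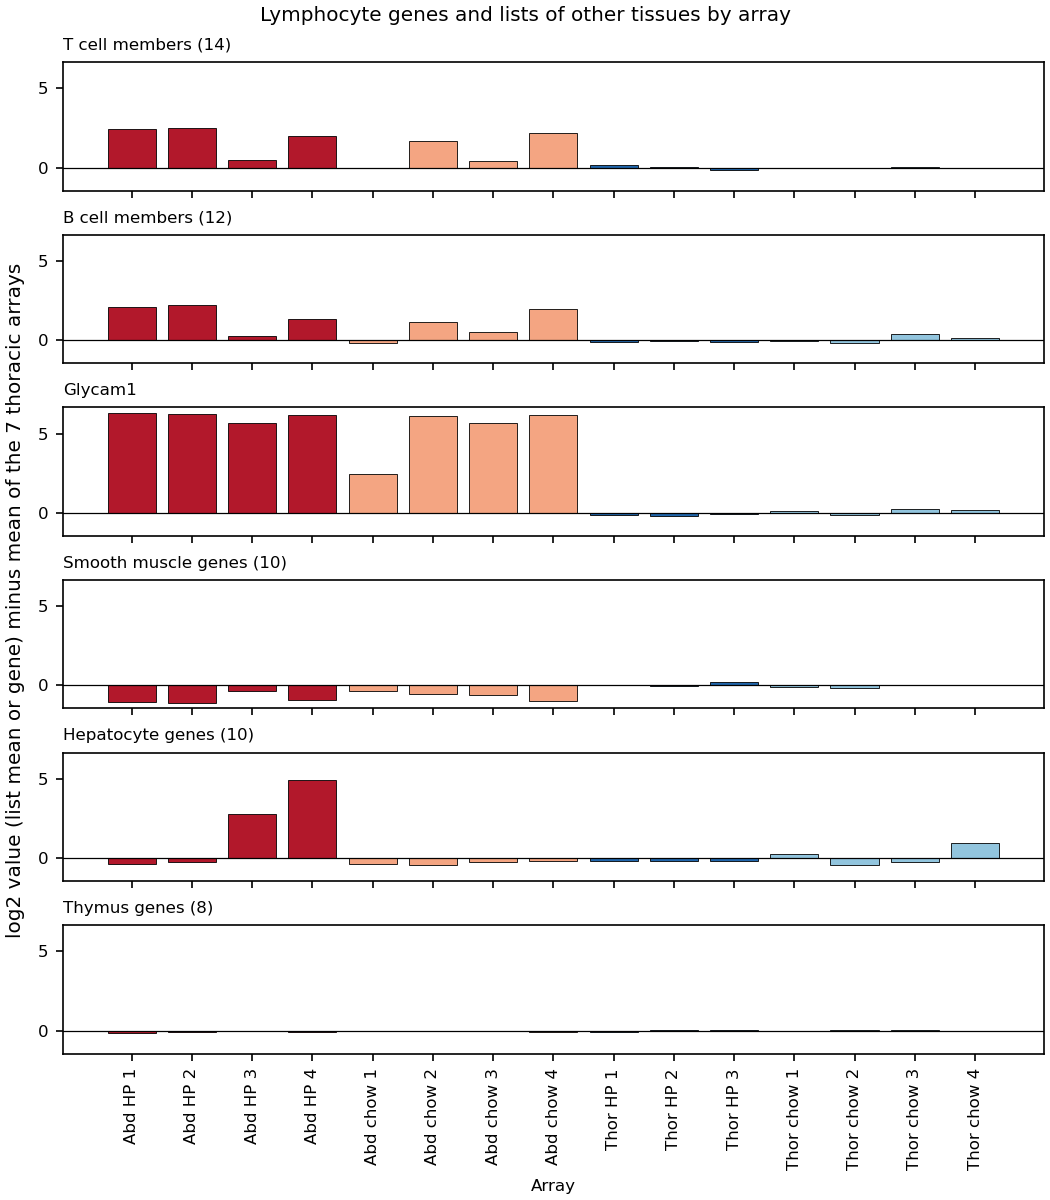
Bars show, for each of the 15 arrays, the list mean (or the Glycam1 value) minus its mean over the 7 thoracic arrays, in log2 units on a common axis, coloured by group. T and B cell bars rise together in 5 abdominal arrays, Glycam1 is raised in all 8, smooth muscle bars are below 0 in the abdomen, hepatocyte bars rise in high-phosphate arrays 3 and 4, and thymus bars stay near 0.

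Genes outside the list were ranked by the likeness of their profile over the 8 abdominal arrays. Of the 15 nearest to the T cell mean 2 were in another list used here, and of the 15 nearest to the B cell mean 6. Likeness was the mean absolute difference between profiles, each centred on its own mean. Closest to the T cell mean were Ighm, the heavy chain of IgM (0.0663), Cd53, a leukocyte tetraspanin (0.0797), Rhoh (0.0867) and Dock2 (0.0943), regulators of lymphocyte signalling and movement, against a median of 0.884 over all genes. The coagulation factor VIII gene F8 (0.108), the phosphatase gene Ptpn6 (0.111), and Timd4 (0.112) and Cd209b (0.129), receptors of resident macrophages, were among the 15 closest. Closest to the B cell mean were Fcrl1, an Fc receptor-like gene of B cells (0.0578), Mcoln2, an ion channel of endosomes (0.0869), and Fcmr (0.108), against a median of 0.759. The T cell genes Icos (0.129) and Prkcq (0.137) were also among the 15 nearest to the B cell mean. The lists of 15 shared 3 genes, among them Ighm and the T cell adaptor Skap1.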

How the data were processed

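Total RNA was labelled, per the labels' protocols, with a NuGEN Applause WT-Amp Plus ST kit. The authors deposited 1 log2 intensity per probe set and array, taken as log2 from its range. RMA and Partek are named in the submitters' processing notes, with no version or order, and a genome build is not given in the sources used here. Array medians lay between 5.778 and 5.840. The number of arrays limits the precision, and detection calls were not used here.

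Of 41345 probe sets, 23521 name exactly 1 gene, 1814 several and 16010 none. The brightest probe set by mean over 15 arrays was used for each gene, and no member has more than 1. No dim genes were removed. Members were matched by symbol, and 29 of 29 gene IDs were found in RefSeq. limma 3.58.1 (R 4.3.3) fitted 1 mean per group over all 15 arrays, eBayes with trend, with Benjamini-Hochberg adjustment over 22180 genes and a two-sided threshold of 0.05. The fit was also run on simulated arrays, drawn with 1 spread per gene in all groups and with genes independent. The members had unequal spreads and moved together, so that run does not check their p-values. p-values set a difference against 1 spread per gene, pooled within the 4 groups and moderated by eBayes. For the members that spread was wide in the abdomen and narrow in the thorax. Their SEs and p-values therefore tend to be too small for abdominal diet changes and too large for thoracic ones.

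Members, lists and tests were chosen with earlier results of these data known, so calls are not independent support. Any member could be named, of other lists the 6 brightest and called genes, and the 15 genes nearest in profile to the T and B cell means. Symbols of predicted genes and of receptor gene segments were not named. Mzb1, Tnfrsf17, Chst4, Fut7 and Siglec1 fall outside that rule and were named after their values were seen. Replicate numbers were not treated as pairs, since the labels do not say that they are. Over genes, deviations of same-numbered arrays of the 2 segments correlated at 0.0295 to 0.122, with 1 of 7 pairs above 0.1. Other pairs of the same diet ran from -0.151 to 0.141. Such correlations cannot decide whether a mouse gave both segments. Alternatives are given in the closing section. Plots were drawn with matplotlib 3.10.9.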

Additional observations from a re-analysis of the deposited data

Results flagged for a closer look

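In groups of 4 arrays, 3 of 93 sets of values (29 members and the T and B cell means, in 3 groups) held an array far from the other 3 by Dixon's criterion. Chance flags about 1 in 20 groups. Il7r in abdominal high-phosphate array 3 read 7.91, against 10.32 to 10.51 in the other 3. Glycam1 in abdominal chow array 1 read 8.95, against 12.17 to 12.69. Madcam1 in thoracic chow array 3 read 5.88, against 6.12 to 6.15.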

How the results depend on the processing

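The abdominal diet count of 0 members became 1 with dim genes removed, with quantile normalization and with a replicate block (Jchain each time), 2 at an adjusted p under 0.1, 3 with array weights and 7 without the 2 abdominal arrays with high hepatocyte genes. Leaving out 1 array gave 0 to 6. The chow segment count of 1 became 2 with array weights and at an adjusted p under 0.1, and 3 without those 2 arrays, with 1 to 7 on leaving out 1 array. The high-phosphate segment count of 21 became 12 with only the groups compared and 12 with the replicate block, with 5 to 27 on leaving out 1 array. Fits that leave out arrays hold fewer arrays, whereas the block keeps all of them. The cause of these shifts was not tested. The thoracic and interaction counts stayed at 0 in all settings run. The interaction involves all 4 groups, so it has no fit with only the groups compared. The block, tried although the labels do not say that the numbers pair the arrays, gave an abdominal diet count of 1, a chow segment count of 1 and a high-phosphate segment count of 12. On leaving out 1 array the abdominal diet estimate of Cr2 ranged from -0.111 to 1.12, and the chow segment estimates of Cd6 and Blk from -0.0997 to 0.115 and from -0.157 to 0.034. The mean change over members ran on leaving out 1 array from 0.32 to 1.07 in the abdominal diet comparison (0.67 with all arrays), from 0.40 to 1.15 in the interaction (0.75), from 0.69 to 1.396 and 1.58 to 2.19 in the chow and high-phosphate segment comparisons and from -0.12 to -0.03 in the thoracic diet comparison. Over all members, estimates changed sign 21 times in the thoracic diet comparison, 5 in the interaction (Madcam1 each time), 6 on chow, 3 in the abdominal diet comparison and 0 in the high-phosphate segment comparison. Those on chow and in the abdomen include Cr2 in the abdominal diet comparison without chow array 1 (-0.111), Madcam1 there without the 2 arrays with hepatocyte genes (0.022), and on chow Cd6 with array weights (0.0053) and without abdominal chow array 1 (0.115) or thoracic chow array 2 (0.014) or 3 (0.0038), and Blk without abdominal chow array 1 (0.031) or 3 (0.034). The median abdominal SD of the members was 0.938 as deposited, 0.912 after quantile normalization and 0.926 after median centring. Signal over background is unknown, so low and unexpressed genes cannot be told apart.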

Other observations

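Dendritic cell genes (9 measured) had list means of 7.29, 7.27, 6.07 and 6.99 in abdominal high-phosphate arrays 1 to 4 and 6.18, 6.84, 6.28 and 7.16 in chow arrays 1 to 4, against 5.84 to 6.10 in the thorax. On high phosphate 5 of 9 were higher in the abdomen by limma, against 6.25% of all genes. Among them were H2-DMb2, which loads peptides on MHC class II (2.69 ± 0.62), Siglech of plasmacytoid dendritic cells (1.80 ± 0.47) and the chemokine gene Ccl22 (1.54 ± 0.47). On chow 0 were called (4.78% of all genes), with 4 at an unadjusted p under 0.05 (19.4% of all genes). Between segments macrophage genes were mixed: on high phosphate the median difference of 9 was 0.05, and 6 estimates were above 0 and 3 below. List means were 7.19 to 8.19 in the abdomen and 7.21 to 8.02 in the thorax. Marco, a scavenger receptor of lymph node and splenic macrophages, was the gene called (1.73 ± 0.51), where 13.8% of all genes were called in either direction. Marco read 8.49, 8.49, 6.67 and 7.47 on high phosphate and 5.81, 7.68, 6.86 and 8.52 on chow in the abdomen. Siglec1, of sinus-lining macrophages, read 7.74, 7.54, 5.96 and 7.54 on high phosphate and 5.65, 6.99, 6.19 and 7.32 on chow, against 5.57 to 6.17 in the thorax, and was not called. Between diets 8 of 9 macrophage estimates were above 0 in each segment, with medians of 0.52 in the abdomen and 0.28 in the thorax. Limma called 1 higher in the abdomen (1.95% of all genes) and 0 in the thorax (1.39%). An unadjusted p under 0.05 was found for 5 and 4, all higher, against 20.0% and 13.8% of all genes.

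Prox1, the master regulator of lymphatic endothelium, read 7.06, 7.03, 6.40 and 7.16 on high phosphate and 6.24, 6.42, 5.94 and 6.86 on chow in the abdomen, against 5.43 to 5.86 in the thorax. It was higher in the abdomen on both diets (1.15 ± 0.20 on high phosphate and 0.76 ± 0.18 on chow). Of 7 lymphatic endothelial genes 3 were called higher in the abdomen on high phosphate and 1 on chow, against 6.25% and 3.02% of all genes. Between diets Mmrn1 (0.80 ± 0.13) and Lyve1 (0.52 ± 0.15), of the same 7, rose on high phosphate in the abdomen. Over all genes 1.95% were called higher on that diet in the abdomen and 1.39% in the thorax. In the thorax Lyve1 rose too (0.74 ± 0.16, limma adjusted p = 0.0254), and Mmrn1 was not called (0.12 ± 0.14). For neither gene was the change called different between segments. Of 9 germinal centre and cell cycle genes 1 was called on high phosphate, S1pr2, a receptor that confines germinal centre B cells, which was lower in the abdomen (-0.26 ± 0.07). Over all genes 13.8% were called between segments on high phosphate. The list means were 6.55, 6.55, 5.97 and 6.20 on high phosphate and 6.12, 6.51, 5.85 and 6.43 on chow in the abdomen, against 5.99 to 6.20 in the thorax. The proliferation marker Mki67 read 7.86, 7.90, 6.31 and 7.44 on high phosphate and 6.61, 7.40, 6.40 and 7.53 on chow in the abdomen, highest in the 5 arrays with high T cell genes, against 6.02 to 7.05 in the thorax, and was not called in any comparison.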
